A study of Mus musculus with 9 samples.

Results

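Ketone body synthesis and butyrate use in the colonic epithelium were followed through 7 genes, Bdh1, Acat1, Oxct1, Slc16a1, Slc5a8, Acsm3 and Ffar2, in RNA-seq of mouse colonic mucosa. They were taken by exact symbol from the deposited table, where each of the 7 had 1 row among 54146 genes, and all 7 were among the 14410 genes tested. The rule uses names alone and no measured value. The study compared 5 ApcMin/+ mice, 2 females and 3 males, with 4 ApcMin/+; p16cis/cis mice, 3 females and 1 male, all C57BL/6J and 15 wk of age. Both genotypes carry a heterozygous germline mutation of Apc, so there was no group with intact Apc. The second genotype also carries, on both alleles, a knocked-in cis-element that draws DNA methylation to the p16 promoter. Both alterations are inherited and present in every cell of the animal, so an effect in these libraries cannot be assigned to the epithelium alone. The RNA came from colonic crypts according to the methods of the study and from colonic mucosa according to the labels.

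Colonocytes burn butyrate, a short-chain fatty acid that bacteria release into the lumen, as their main fuel. Butyrate enters through monocarboxylate transporters, is joined to coenzyme A inside the mitochondrion and is oxidized to acetyl-CoA, and it is also sensed at the cell surface by G protein-coupled receptors. Acetyl-CoA can be turned into the ketone bodies acetoacetate and β-hydroxybutyrate, and SCOT, encoded by Oxct1, commits them to use.

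The question was whether these steps differed between the genotypes. None of the 7 genes passed the test (limma, Benjamini-Hochberg adjusted p under 0.05 over all 14410 genes), where 16.9% of all genes tested did and 3.48% did with a fold change over 2. One gene, Slc16a1, had an unadjusted p under 0.05, against 33.2% of all genes, and the counts of members called by edgeR with TMM or RLE scaling and by DESeq2 on the recovered reads were also 0, against 17.1%, 17.1% and 18.9% of the genes each tested. The values of the genotypes overlapped for each of the 7 genes, while 16.2% of all genes tested had no overlap. Fitted log2 fold changes of ApcMin/+; p16cis/cis against ApcMin/+ ran from -0.41 for Slc16a1 to 0.34 for Ffar2, and their median of -0.04 lay beside -0.0041 over all genes tested. Among the 26 other pathway genes tested and described here 5 passed, where 16.9% of all genes tested did. The largest of these 5 changes was the fall of Slc26a3 by 1.23 on the log2 scale. Throughout, a normalized count is the number of reads on a gene divided by the size factor of its library, and fold changes were fitted on log2(normalized count + 1). In bulk RNA, fewer cells of a type and less RNA per cell cannot be told apart.

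The libraries held 15745098 to 17885918 reads on genes in ApcMin/+ mice and 13523500 to 14900228 in ApcMin/+; p16cis/cis mice, with no overlap. The share of reads on mitochondrially encoded genes was 8.74% to 15.6% and 19.3% to 29.8%, also with no overlap, so this share and the genotype cannot be told apart in any comparison given here. All 10 epithelial genes listed, among them Epcam, were measured, with a sum of 270541 to 433737 normalized counts. The 10 genes of smooth muscle, fibroblasts and endothelium summed to 217 to 833. The 10 of lymphocytes and plasma cells summed to 4607 to 7804, most of it from Xbp1, at means of 5749 and 5178. Sums over unlike genes do not measure the share of each cell type. Cdkn2a, the gene of p16, was listed at 0 in all 9 mice, so the knock-in could not be checked at the level of its target.

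The promoters of the members that touch butyrate at the cell surface are shown because these genes gave both the largest and the smallest differences of the set. Each sequence is the 250 bases before the annotated start in RefSeq (GRCm38.p6), written 5′ to 3′ along the transcribed strand, with capitals for any of 3 motifs searched on both strands. These were the nuclear receptor core motif AGGTCA, the E-box CACGTG and the TATA box letters TATAAA, present in 14.0%, 6.02% and 12.4% of 32817 promoter windows of the same length. The Slc16a1 window lies at chr3:104638414-104638663 on the plus strand, the Slc5a8 window at chr10:88885742-88885991 on the plus strand and the Ffar2 window, the first of its 4 annotated starts, at chr7:30823776-30824025 on the minus strand.
Slc16a1: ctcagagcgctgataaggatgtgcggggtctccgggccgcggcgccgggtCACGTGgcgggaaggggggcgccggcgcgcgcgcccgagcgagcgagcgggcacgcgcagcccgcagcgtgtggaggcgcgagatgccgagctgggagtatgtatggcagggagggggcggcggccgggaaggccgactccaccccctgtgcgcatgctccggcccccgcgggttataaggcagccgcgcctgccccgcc
Slc5a8: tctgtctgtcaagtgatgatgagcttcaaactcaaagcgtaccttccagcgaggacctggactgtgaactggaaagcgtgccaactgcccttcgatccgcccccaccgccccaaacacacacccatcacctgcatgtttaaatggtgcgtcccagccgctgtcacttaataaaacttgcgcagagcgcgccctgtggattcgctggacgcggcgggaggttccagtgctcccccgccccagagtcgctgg
Ffar2: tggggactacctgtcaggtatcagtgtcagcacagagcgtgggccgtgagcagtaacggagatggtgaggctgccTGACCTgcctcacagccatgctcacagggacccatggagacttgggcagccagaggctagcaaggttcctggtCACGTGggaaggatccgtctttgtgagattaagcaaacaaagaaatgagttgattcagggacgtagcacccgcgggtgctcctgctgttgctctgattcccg
The Slc16a1 window holds the E-box 200 bp before the start and is rich in G and C, at 76.4% of its bases. In the Slc5a8 window, with 58.8% G and C, none of the 3 motifs was found. The first Ffar2 window, with 56.8% G and C, holds the core motif, read on the opposite strand, 175 bp before the start and the E-box 102 bp before it. A match is only a string of letters and says nothing of a factor bound there.

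Per kilobase of exon, where genes can be set beside each other, Slc16a1 had the highest level of the 7, at 1454 ± 341 normalized counts per kb (mean ± SD, n = 9 mice of both genotypes). Oxct1 followed at 1282 ± 151, Acat1 at 1269.5 ± 142 and Slc5a8 at 1043 ± 148. Bdh1 stood at 936 ± 135, Acsm3 at 604 ± 142 and Ffar2 at 202 ± 45.2 normalized counts per kb. The top of this order was not resolved, since Slc16a1 was above Oxct1 in 5 of 9 mice and Oxct1 above Acat1 in 4 of 9. Acat1 was above Slc5a8 and Slc5a8 above Bdh1 in 7 of 9 mice each. Bdh1 was above Acsm3 and Acsm3 above Ffar2 in 9 of 9 mice. All but Ffar2 ranked high in the tissue, with 88.9% (Acsm3) to 96.0% (Slc16a1) of all tested genes lower per kilobase, and for Ffar2 the figure was 70.8%.

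**Figure D1:**
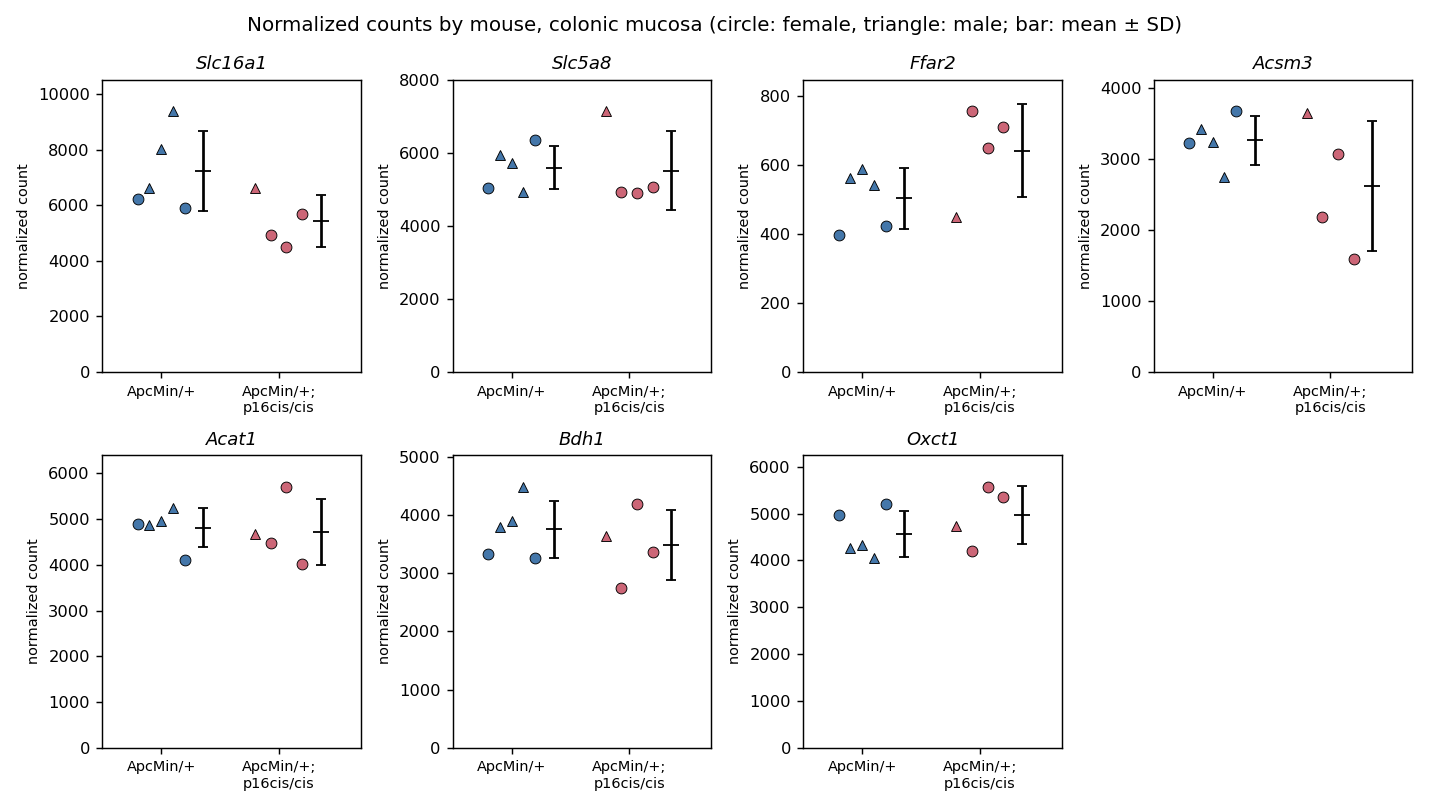
Normalized counts (y axis, linear, from 0) of the 7 genes in each mouse, by genotype (x axis), with 1 point per mouse, marked by sex, and the mean ± SD as a bar. The points of the genotypes overlap for each of the 7 genes, and the single male with p16cis/cis, the triangle of that genotype, is its highest mouse for Slc16a1, Slc5a8 and Acsm3 and its lowest for Ffar2.

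Slc16a1 encodes MCT1, the proton-coupled transporter that carries butyrate, lactate and ketone bodies across the membrane (ENSMUSG00000032902.1, chromosome 3, 104638668 to 104658462, plus strand, GRCm38). Its normalized counts were 6232, 6624, 8032, 9392 and 5911 in ApcMin/+ replicates 1 to 5 and 6628, 4921, 4511 and 5671 in ApcMin/+; p16cis/cis replicates 1 to 4. The 3 lowest values belonged to females with p16cis/cis, and the male of that genotype lay between ApcMin/+ replicates 2 and 3. The means were 7238 ± 1451 (SD, n = 5) and 5433 ± 930.5 (SD, n = 4), and the log2 fold change was -0.41 (SE 0.16, 95% interval -0.75 to -0.06, limma adjusted p = 0.0961). The exact permutation test over all splits of the 9 mice into 5 and 4 gave p = 0.0794, two-sided. None of the 7 members had an exact permutation p under 0.05, as 29.9% of all genes tested did. Within females the values were 5911 to 6232 against 4511 to 5671, without overlap, as for 44.2% of all genes, and in males 6624 to 9392 against 6628 in a single mouse.

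Slc5a8 encodes SMCT1, the sodium-coupled transporter that takes up butyrate on the luminal side of the colonocyte (ENSMUSG00000020062.7, chromosome 10, 88885992 to 88929515, plus strand). It was read at 5044, 5930.4, 5735, 4938 and 6347 normalized counts in ApcMin/+ mice and at 7145, 4939, 4912 and 5061 in ApcMin/+; p16cis/cis mice, in replicate order. The male with p16cis/cis was the highest of all 9 mice, and the 3 females of its genotype lay close together at the low end of the ApcMin/+ range. With means of 5599 ± 599 (SD, n = 5) and 5514 ± 1089 (SD, n = 4), the log2 fold change was -0.03 (SE 0.13, 95% interval -0.33 to 0.26, limma adjusted p = 0.887). This interval leaves room for differences of up to 1.25-fold down and 1.20-fold up.

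Acsm3 encodes a mitochondrial acyl-CoA synthetase that joins short and medium-chain acids, butyrate among them, to coenzyme A (ENSMUSG00000030935.15, chromosome 7, 119760923 to 119787513, plus strand). Its normalized counts were 3227, 3433, 3245, 2751 and 3679.9 in ApcMin/+ mice and 3649, 2184, 3079 and 1587 in ApcMin/+; p16cis/cis mice. The spread was uneven, with a coefficient of variation of 10.5% in the first genotype and 35.0% in the second, the widest of any member. The means were 3267 ± 342 (SD, n = 5) and 2625 ± 918 (SD, n = 4), for a log2 fold change of -0.38 (SE 0.20, 95% interval -0.82 to 0.06, limma adjusted p = 0.215). In the annotation 39.7% of its exon bases are shared with Eri2 on the opposite strand, whose mean was 167 normalized counts, and the strand setting of the counting is not known here, so part of this value is uncertain.

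Ffar2 encodes GPR43, a receptor for acetate, propionate and butyrate that is also made by enteroendocrine cells and leukocytes (ENSMUSG00000051314.11, chromosome 7, 30818348 to 30823775, minus strand). It had 396, 563, 589, 543 and 423 normalized counts in ApcMin/+ mice and 449.5, 756, 649 and 709.6 in ApcMin/+; p16cis/cis mice. The 3 highest values were those of the females with p16cis/cis, and the 2 lowest those of the ApcMin/+ females. Means of 503 ± 87.1 (SD, n = 5) and 641 ± 135 (SD, n = 4) gave a log2 fold change of 0.34 (SE 0.17, 95% interval -0.04 to 0.72, limma adjusted p = 0.195). Among females alone it passed the test, higher by 0.78 on the log2 scale (limma adjusted p = 0.0284), where 6.23% of all genes did. This rested on 2 against 3 mice, and the only male with p16cis/cis, at 449.5, lay below the 3 ApcMin/+ males, at 543 to 589.

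The markers of the other cells that make Ffar2 did not move as 1 group. Of 10 enteroendocrine genes tested, Insl5 rose by 1.24 (limma adjusted p = 0.0211) and Chga and Chgb fell by 0.69 and 1.11. Among all genes tested 8.14% rose and 8.75% fell. Pyy and Gcg, at 0.88 and 0.48, did not pass (limma adjusted p = 0.0721 and 0.276). Fitted values were above 0 for 5 of the 10 and below 0 for 5. The list summed to 5073 to 10057 normalized counts in ApcMin/+ mice and 6430 to 11191 in ApcMin/+; p16cis/cis mice. Of 11 neutrophil and myeloid markers 10 were in the table and 5 were tested, with sums of 599 to 1149 and 467 to 1763. These sums are mostly Ly6g, which is used as a neutrophil marker and was tested. It had 669 ± 245 and 930 ± 602 normalized counts (log2 fold change 0.28, limma adjusted p = 0.670). S100a8, S100a9, Cxcr2 and Csf3r, which mark neutrophils too, were too low to be tested. Their means were 8.28 and 5.28, 10.3 and 10.1, 1.31 and 0, and 7.30 and 3.44 normalized counts in that order. Ly6g stood far above these 4, and whether its reads came from neutrophils was not tested. The part of these cells in the Ffar2 value was not tested.

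Acat1 encodes the mitochondrial acetoacetyl-CoA thiolase, which works in both the making and the use of ketone bodies (ENSMUSG00000032047.5, chromosome 9, 53580522 to 53610382, minus strand). The mice of ApcMin/+ had 4899, 4871, 4961, 5238 and 4098 normalized counts and those of ApcMin/+; p16cis/cis had 4672, 4468, 5706 and 4023. Both the highest and the lowest of the 9 values came from ApcMin/+; p16cis/cis females. The means, 4813 ± 426 (SD, n = 5) and 4717 ± 713 (SD, n = 4), differed by a log2 fold change of -0.04 (SE 0.12, 95% interval -0.29 to 0.22, limma adjusted p = 0.864).

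Bdh1 encodes the β-hydroxybutyrate dehydrogenase of the mitochondrial inner membrane, which turns acetoacetate into β-hydroxybutyrate and back (ENSMUSG00000046598.15, chromosome 16, 31422280 to 31458901, plus strand). Counts were 3338, 3792, 3898, 4489.6 and 3269 after normalization in ApcMin/+ mice and 3638, 2752, 4201 and 3371 in ApcMin/+; p16cis/cis mice. The 2 lowest ApcMin/+ mice were the females, and the lowest and the second highest of all 9 were females with p16cis/cis. The log2 fold change was -0.11 (SE 0.14, 95% interval -0.41 to 0.18, limma adjusted p = 0.601), from means of 3757 ± 493 (SD, n = 5) and 3491 ± 602 (SD, n = 4).

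Oxct1 encodes SCOT, which transfers coenzyme A from succinyl-CoA to acetoacetate and is the step that separates tissues that use ketone bodies from those that only make them (ENSMUSG00000022186.14, chromosome 15, 4026383 to 4155344, plus strand). Its normalized counts in ApcMin/+ mice were 4960.0, 4274, 4338, 4051 and 5215, and in ApcMin/+; p16cis/cis mice 4729, 4203, 5573 and 5359. Within ApcMin/+ the 2 females were above the 3 males. Means of 4568 ± 494 (SD, n = 5) and 4966 ± 622 (SD, n = 4) gave a log2 fold change of 0.12 (SE 0.12, 95% interval -0.14 to 0.37, limma adjusted p = 0.519). Antisense transcripts overlap 12.6% of the exon bases of Oxct1 and 13.7% of those of Bdh1, at means of 13.1 and 11.9 normalized counts.

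Across import, activation, sensing and ketone body turnover, the largest fitted difference of a member was the 1.33-fold lower value of Slc16a1. The limits of the 95% intervals reached 1.77-fold lower, for Acsm3, and 1.65-fold higher, for Ffar2, so a change of 2-fold lay outside all 7 intervals while smaller changes lay inside them. The summed normalized count of the 7 genes was 28095 to 31403 in ApcMin/+ mice and 24222 to 30911 in ApcMin/+; p16cis/cis mice.

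The only male with p16cis/cis bears on Slc5a8, Slc16a1, Acsm3 and Ffar2. For Slc5a8 the limma log2 fold change was -0.03 with this mouse and -0.17 without it (adjusted p = 0.887 and 0.346). In Acsm3 and Ffar2 the genotypes did not overlap in females and did not overlap the opposite way in males, a pattern of 4.72% of all genes tested. Without this mouse, the exact permutation test over 56 splits gave p = 0.0357 for each of Slc16a1, Acsm3 and Ffar2, where 0.0179 was the smallest p possible and 24% of all genes tested had an exact permutation p under 0.05. The limma log2 fold changes were then -0.51, -0.56 and 0.50, with adjusted p of 0.0591, 0.0646 and 0.0511, so that no member passed, while 15.3% of all genes did. Sex and genotype were unevenly spread over the mice, and with 1 male in that genotype an effect of this mouse and an effect of sex cannot be told apart.

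The rest of the pathway was read from 5 lists, with 39 further genes described here, all in the table, of which 26 were tested. Of the 26, 4 fell, where 8.75% of all genes did, and 1 rose, where 8.14% did. The number that fell was 7 without ApcMin/+; p16cis/cis replicate 3, 2 in females alone and 0 with the mitochondrial share, which separates the genotypes, as a covariate. Fitted values were below 0 for 19 of the 26 and above 0 for 7, with a median log2 fold change of -0.24. Over all 14410 genes tested they were below 0 for 7261 and above 0 for 7149, with a median of -0.0041. Slc5a12, Acsm1, Acsm2 and Acsm5 were listed at 0 in all mice.

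Of the 6 tested genes described here from the list of ketone body synthesis and use, 0 passed with limma and 1 had an unadjusted p under 0.05. Of all genes tested 16.9% and 33.2% did. The median log2 fold change of the 6 was -0.14.

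In the transport list 2 of 8 tested genes fell, where 8.75% of all genes did, and the median log2 fold change was -0.63. No tested Slc16 gene on this list passed, and the lowest of them was Slc16a3, at -1.35 (limma adjusted p = 0.0651). Slc26a3, the chloride and bicarbonate exchanger of the luminal membrane, fell from 10376 ± 2772 (SD, n = 5) to 4489 ± 1558 (SD, n = 4), a log2 fold change of -1.23 (SE 0.24, limma adjusted p = 0.00848). In females alone Slc26a3 was at -0.77 and did not pass (limma adjusted p = 0.135). Abcg2, an efflux pump of the luminal membrane, fell from 1876 ± 629 to 827 ± 119, a log2 fold change of -1.13 (SE 0.21, limma adjusted p = 0.00662). Bsg, which encodes basigin, the partner that brings MCT1 to the membrane, had 19809 ± 3978 and 20062 ± 2943 normalized counts (log2 fold change 0.03, limma adjusted p = 0.924).

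Butyryl-CoA oxidation had 8 tested genes, of which 2 fell and 1 rose, with a median of -0.28. Of all genes tested 8.75% fell and 8.14% rose, with a median of -0.0041. The genes that passed all serve the transfer of electrons from acyl-CoA dehydrogenases to the respiratory chain. Etfa, the α subunit of the electron transfer flavoprotein, fell from 2389 ± 279.9 (SD, n = 5) to 1572 ± 136 (SD, n = 4), a log2 fold change of -0.60 (SE 0.11, limma adjusted p = 0.00629). Etfdh, the dehydrogenase that accepts its electrons, fell from 2434 ± 467 to 1389.5 ± 163, a log2 fold change of -0.79 (SE 0.14, limma adjusted p = 0.00571). In females alone Etfdh still passed, and Etfa, at -0.39, did not (limma adjusted p = 0.0341 and 0.124). Etfb, the β subunit, went the other way, from 562 ± 288 to 1004 ± 217, with overlapping values (log2 fold change 0.93, SE 0.29, limma adjusted p = 0.0446), and it did not pass with either edgeR scaling, with sex in the model, or without any 1 mouse other than ApcMin/+ replicate 4 or ApcMin/+; p16cis/cis replicate 1. A predicted gene on the same strand, Gm45233, shares 53.0% of its exon bases and was listed at 0 in all mice. Acads, the dehydrogenase that acts on butyryl-CoA itself, had 5979 ± 1803 and 5603 ± 403 normalized counts (log2 fold change -0.05, limma adjusted p = 0.887).

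Of the 2 tested genes of acyl-CoA activation and the 2 tested receptor genes outside the set, 0 passed, where 16.9% of all genes did. The medians were -0.06 and 0.12. Ffar3, the receptor closest to Ffar2, was low at 21.8 ± 10.97 (SD, n = 5) and 31.5 ± 18.1 (SD, n = 4) normalized counts (log2 fold change 0.43, limma adjusted p = 0.563). Hcar2, the receptor for butyrate and β-hydroxybutyrate, had 4.41 ± 1.48 and 5.71 ± 4.09 normalized counts and was too low to be tested.

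**Figure D2:**
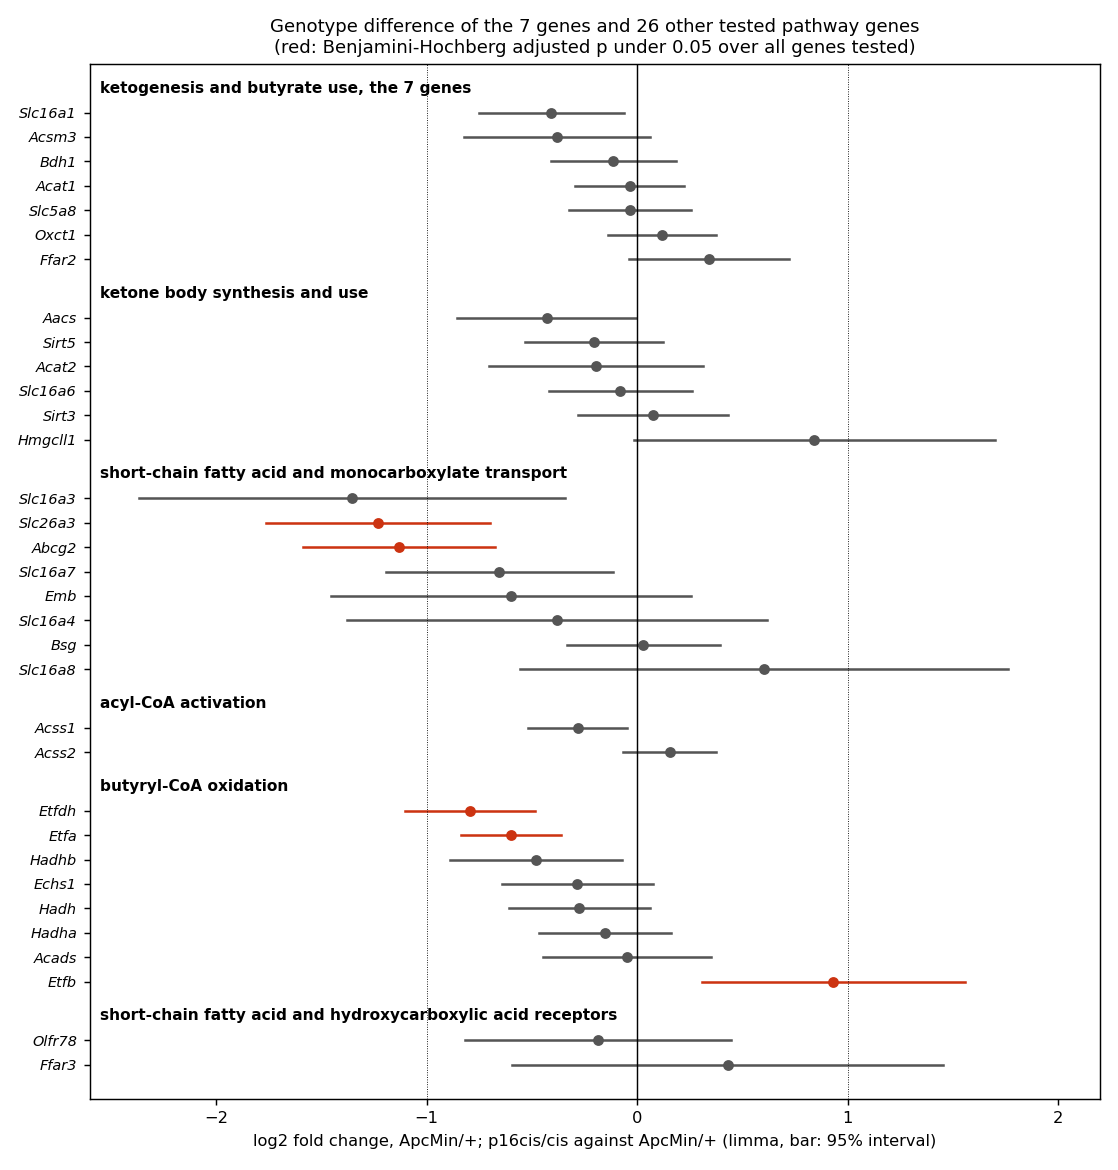
Fitted log2 fold change of ApcMin/+; p16cis/cis against ApcMin/+ (x axis, point) with its 95% interval (bar) for the 7 genes and the 26 other tested pathway genes, grouped by list. The points of the 7 genes lie between -0.41 and 0.34, and the called genes Slc26a3 and Abcg2, in red, lie beyond -1, as does Slc16a3, which did not pass (limma adjusted p = 0.0651).

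Markers of the cell make-up are given beside these falls, to be read against the 8.75% of all genes that fell and the 8.14% that rose. Of 10 markers of differentiated colonocytes, Slc26a3, also on the transport list, and Slc9a3 fell and Slc37a2 rose, with a median of -0.43. Their sum was 162091 to 314969 normalized counts in ApcMin/+ mice against 118264 to 147687, without overlap, as for 16.2% of single genes tested. Much of this sum is Car1, at means of 92501 and 51029, which did not pass (limma adjusted p = 0.0750). Of 8 crypt base and stem cell markers 1, Ephb2, rose (median 0.33, sum 6640 to 11275 against 10264 to 12876). Of 8 proliferation markers 2, Mki67 and Birc5, rose (median 0.20, sum 6372 to 9915 against 9456 to 12578). The part of the cell make-up in the falls of Slc26a3 and Abcg2, and in the values of the 7 genes, was not tested. The 10 epithelial markers had 0 calls and a median of -0.03.

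The calls in the other lists are given beside the 16.9% of all genes tested that passed. Of 8 goblet cell genes Spink4 rose (median 0.26), of 5 tested tuft cell genes 0 passed (median 0.46), and of 5 genes of distal position 0 passed, with all 5 above 0 (median 0.73). Lyz2 fell among the 5 tested myeloid markers (median -0.02) and Jchain among 10 lymphocyte and plasma cell markers (median -0.61). Col3a1 fell among the 10 of smooth muscle, fibroblasts and endothelium (median -1.20), and Alpi among 5 tested markers of small intestine (median -0.44). Of 6 adipocyte markers only Cidec was tested, and it fell, with list sums of 128 to 425 against 44.2 to 91.7 normalized counts.

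Ratios within a mouse remove what scales all genes of a library alike. On the log2 scale Bdh1 to Oxct1, which sets the dehydrogenase beside the committed step of ketone use, was -0.28 ± 0.34 in ApcMin/+ mice (SD, n = 5) against -0.52 ± 0.14 in ApcMin/+; p16cis/cis mice (SD, n = 4), and the difference was -0.23 (exact permutation test, two-sided, p = 0.246). The ratio of the transporters, Slc16a1 to Slc5a8, was 0.36 ± 0.39 and -0.02 ± 0.13 (difference -0.37, exact permutation p = 0.0952). Acat1 to Bdh1 was 0.36 ± 0.12 and 0.44 ± 0.19 (difference 0.08, exact permutation p = 0.5). Slc5a8 to Ffar2, transporter to receptor, was 3.49 ± 0.30 and 3.11 ± 0.59 (difference -0.37, exact permutation p = 0.254). Adjusted over the 4 ratios by Benjamini-Hochberg, the exact permutation p-values were 0.339, 0.339, 0.5 and 0.339, so no ratio passed.

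**Figure D3:**
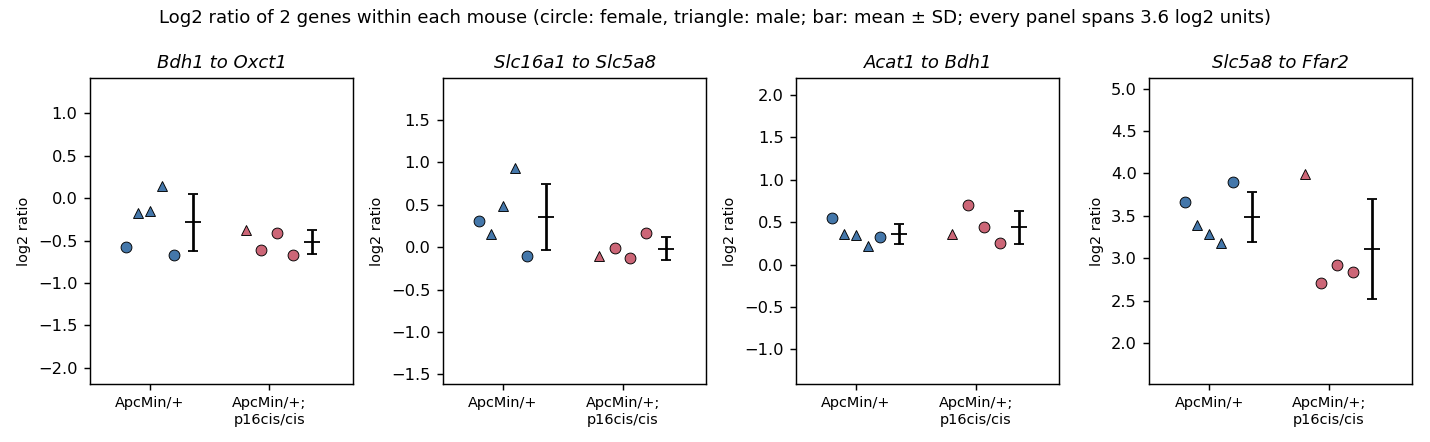
Log2 ratios of normalized counts within each mouse (y axis) by genotype (x axis), with 1 point per mouse and the mean ± SD, for the 4 ratios among the 7 genes. The genotypes overlap in all 4, and the highest and the lowest Slc5a8 to Ffar2 ratios, 3.99 and 2.71, both belong to ApcMin/+; p16cis/cis mice.

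How the 7 genes varied among mice once the genotype means had been taken out was described by Pearson correlation over the 9 mice, on the log2 scale, with no test. Points share a library, its depth and its cell make-up. Over the 21 pairs the median was 0.04, and 13 were above 0. Bdh1 and Acat1 had the highest value, 0.71, then Slc5a8 and Acsm3, 0.65. Acsm3 and Ffar2 had the lowest, -0.62, Slc5a8 and Ffar2 had -0.57 and Oxct1 and Slc16a1 had -0.55. Several of these values rested on ApcMin/+; p16cis/cis replicate 1, which was high in Slc5a8 and Acsm3 and low in Ffar2. Without it Slc5a8 and Ffar2 stood at 0.05, Slc5a8 and Acsm3 at 0.27 and Acsm3 and Ffar2 at -0.29, while Bdh1 and Acat1 stood at 0.72 and Oxct1 and Slc16a1 at -0.55.

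By the same measure, the genes most like each member among the 14410 tested were Trappc9 (0.97), Bckdha (0.97) and Tmem109 (0.96) for Bdh1, and Mrps27 (0.98), Gatad1 (0.96) and Agmo (0.96) for Acat1. For Oxct1 they were Rps6ka2 (0.98), Ero1l (0.97) and Tmem2 (0.96). Slc16a1 was followed by Fam134c (0.98), Ttyh2 (0.98) and Bco2 (0.97), and Slc5a8 by Bcorl1 (0.98), Mre11a (0.97) and Fancd2 (0.95). For Acsm3 they were Rdh1, Med23 and Calu, all at 0.98, and for Ffar2 RP23-332O12.8 (0.96), Fzd9 (0.95) and RP23-294I17.4 (0.94). How high the best of so many genes would stand by chance over 9 mice was not tested.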

How the data were processed

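RNA-seq was made from RNA of 9 mice, each 1 replicate, taken from colonic crypts according to the methods and from colonic mucosa according to the labels. According to the methods, libraries were sequenced on the BGISEQ-500, aligned with BOWTIE2, quantified with RSEM and compared with DESeq2. The genome build, the annotation, the strand setting and the versions are not given in the sources used here. The authors deposited normalized counts, here called signal, in which the reads on a gene have been divided by a size factor for each mouse. Dividing each by the value of 1 read in its column gave whole reads for 100% of positive values, to within 0.01 reads, and 13523500 to 17885918 reads per mouse. A library's floor of 3 reads covers counting error only.

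Of the identifiers, 54079 were in GENCODE M21 (GRCm38), of which 52480 had the same version, and coordinates, exon lengths and overlaps came from there. Promoters came from RefSeq, which had entries for the members shown.

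Genotypes were compared with limma 3.58.1 (R 4.3.3), allowing a trend in the variances and with genotype as the sole term, on log2(normalized count + 1), over 14410 genes at 10 or more in at least 4 mice, with Benjamini-Hochberg adjustment over all of them. Intervals are 95%. Single genes and ratios were compared by exact permutation over all splits of the 9 mice. Alternatives were edgeR 4.0.16 and DESeq2 1.42.0 on recovered reads, a pseudocount of 0.1, other filters, centring on epithelial genes, sex or mitochondrial share as covariates, females only, the replicate block and leaving out each mouse. The tests were tried on simulated data. The genotype by sex term and the correlations without 1 mouse were added after seeing the data.

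Members and lists were chosen with earlier results of these data known. Named genes are the 7 members, pathway genes that passed, Ffar3, Hcar2, Bsg and Acads in any case, and the 3 genes most like each member, and 2 genes of the rule and of the pathway lists are not reported here. Marker genes named, Gm45233, Eri2 and Cdkn2a are outside this rule and were chosen after their values were seen. Same-numbered mice of the genotypes are different animals, and their deviations correlated at -0.18, 0.07, 0.05 and 0.14, so the numbers do not pair them.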

Additional observations from a re-analysis of the deposited data

Results flagged for a closer look

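Of 40 groups of values checked, 2 had a mouse far from the others of its genotype, where chance flags about 1 in 20 groups, or 2.0 here. Slc5a8 was at 7145 normalized counts in ApcMin/+; p16cis/cis replicate 1, against 4912 to 5061 in the other 3 mice of the genotype. The log2 ratio of Slc5a8 to Ffar2 was 3.99 in the same mouse, against 2.71 to 2.92.

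For 2 members every mouse of one genotype lay on one side of the other genotype in females and on the opposite side in males, as did 4.72% of all genes tested. For Ffar2 the genotype difference in females minus that in males was 1.11 on the log2 scale (limma interaction, 95% interval 0.61 to 1.61, adjusted p = 0.722), and for Acsm3 it was -0.87 (95% interval -1.72 to -0.02, limma adjusted p = 0.722). Neither passed the correction over 14410 genes, for which 0 genes passed with limma and 979 had an unadjusted p under 0.05. Both members were picked for this split between the sexes, so their intervals do not test it. For Slc5a8, not so picked, the same difference was -0.56. The male side of Ffar2, Acsm3 and Slc5a8 rests on 1 ApcMin/+; p16cis/cis mouse, the same replicate 1, so the sex and that animal cannot be told apart.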

How the results depend on the processing

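The count of members past the limma threshold was 0 in 21 of 22 alternatives and 1 (Ffar2) in females only. By exact permutation, 0 to 3 members had p under 0.05 when 1 mouse was left out, with 3 only without ApcMin/+; p16cis/cis replicate 1, where 24% of all genes did. Of the other pathway genes, 0 fell with the mitochondrial share as a covariate, 2 in females only, and 4 to 7 with 1 mouse left out. The 1 that rose, Etfb, was not called with edgeR TMM, edgeR RLE, sex or the mitochondrial share (0 each), and the count was 0 to 1 with 1 mouse left out. With the replicate block 0 members, 5 lower and 1 higher passed, and no other call changed in that fit. The same-numbered mice are different animals.

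Fitted differences that changed sign were those of genes that had not passed the test, and they included Slc16a1 and Acsm3, the lowest fitted values among the members. With the mitochondrial share, which separates the genotypes, Acat1 was at 0.19, Slc5a8 0.34, Bdh1 0.44, Slc16a1 0.076, Acsm3 0.21 and Acads 0.42. In females only Acat1 was at 0.063, Bdh1 0.038, Oxct1 -0.022, Acads 0.34, Ffar3 -0.25 and the ratio of Bdh1 to Oxct1 0.060. Centred on epithelial genes, Acat1 was at 0.0031 and Slc5a8 at 0.0049. With sex, Slc5a8 was at 0.028 and Acads at 0.074, and with the replicate block Slc5a8 was at 0.013 and Bsg at -0.052. With 1 mouse left out, Acat1 ran from -0.13 to 0.037, Slc5a8 from -0.17 to 0.015, Acads from -0.15 to 0.10, Bsg from -0.065 to 0.13 and the ratio of Acat1 to Bdh1 from -0.0097 to 0.14. The cause was not tested.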
